A study of Drosophila melanogaster with 12 samples.

Results

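The genes described here encode the receptor of the steroid hormone ecdysone, its coactivator and the transcription factors of the early hormone response in the fruit fly Drosophila melanogaster. They are EcR, usp, tai, Eip74EF, Eip75B, Eip78C, br, Hr46, ftz-f1 and Eip93F, picked from the tables by symbol; earlier results of these data were known when the list was drawn up. All 10 had a row in each of the 3 deposited comparison tables, which hold 14542, 14540 and 14540 gene rows. Cuffdiff, the program that made the tables, tested 9 of the 10 in every table; Hr46 was not tested in any.

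RNA was sequenced from S2 cells, an embryo-derived cultured line that resembles hemocytes, the phagocytic blood cells of the fly. The cells had taken up double-stranded RNA (dsRNA) for 4 days, directed against Sin3A and Sam-S together, against Sin3A alone, against Sam-S alone, or against GFP as the control. Every group was labelled wild type, grew in medium with fetal bovine serum, and had 3 samples that the series text calls biological replicates. The labels name no added ecdysone. The replicates of a group were combined by the authors, so each gene has 1 FPKM (fragments per kilobase of transcript, scaled to all mapped fragments) per group and no SD, and the labels do not say whether the deposited p-values measure the spread between samples.

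Ecdysone is made in steroid-producing glands and converted in target tissues to its active form, which binds a heterodimer of the nuclear receptors EcR and USP. The bound receptor switches on a small set of early genes, which encode transcription factors that in turn control large sets of late genes, and some of these factors also damp the response. Pulses of the hormone drive molting and metamorphosis, and in hemocytes the hormone is known to enhance immune responses. SIN3, the product of Sin3A, holds together a complex that removes acetyl groups from histones, and the Sam-S enzyme makes S-adenosylmethionine, the donor for histone methylation.

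The targeted genes were read first as a check of the labels. Sam-S stood at 91.2 FPKM in the samples labelled double knockdown against 243.0 FPKM in the control, and at 62.0 FPKM after Sam-S knockdown against 242 FPKM in the control. With Sin3A dsRNA alone Sam-S rose, to 484 FPKM against 239.9 FPKM in the control (log2 fold change 1.01, q = 0.00172 in the authors' deposited table). Sin3A stood at 64.7 FPKM in the samples labelled double knockdown against 68.5 FPKM in the control (the double comparison), and at 61.7 FPKM in the samples labelled SIN3 knockdown against 67.9 FPKM in the control (the Sin3A comparison). Its mRNA was therefore not lower by the test (q = 0.930 and 0.931 in the authors' deposited tables), and every direction given below for samples labelled SIN3 or double knockdown rests on the label. Of 11 hemocyte markers, 10 were at or above 1 FPKM in the control, while the hemocyte marker Hml stood at 0.779 FPKM there. In bulk samples, fewer cells of a type and less RNA per cell cannot be told apart.

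**Figure D1:**
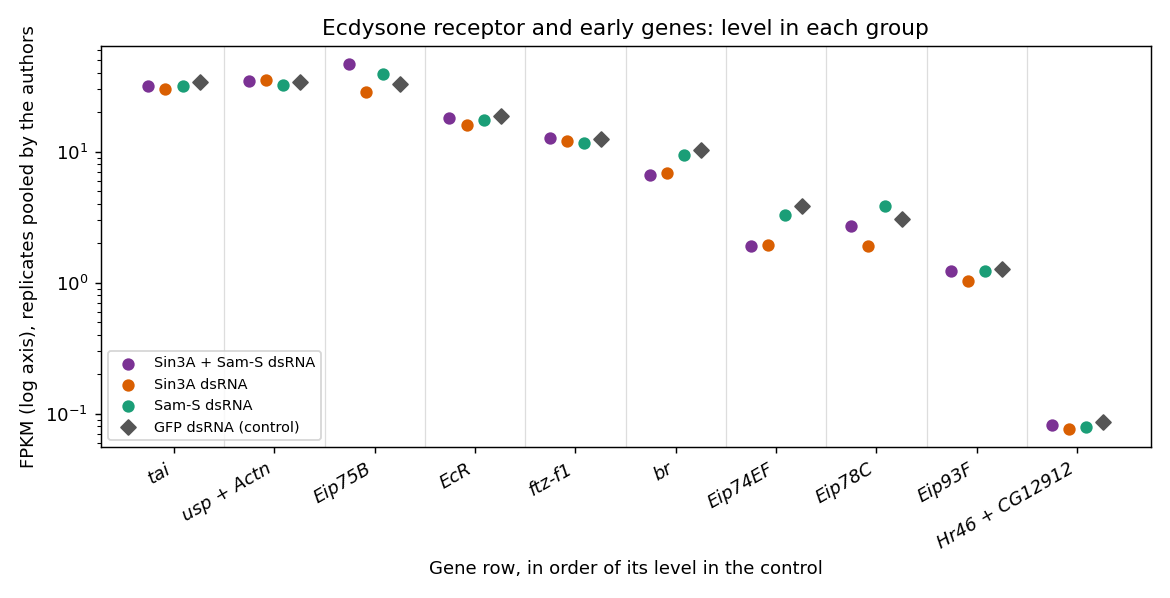
FPKM of each of the 10 genes on a log axis, in cells given Sin3A + Sam-S, Sin3A, Sam-S or GFP dsRNA, with 1 point per group because the authors pooled the replicates. Eip74EF lies at 1.92, 1.92, 3.30 and 3.85 FPKM in that order of groups, whereas Hr46 lies below 0.1 FPKM in each.

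The genes covered a wide range of levels, and the hormone receptor was well above the weakest early genes. In the control, tai and the usp row each stood at 34.2 FPKM, Eip75B at 33.0 FPKM, EcR at 18.7 FPKM, ftz-f1 at 12.5 FPKM and br at 10.4 FPKM. Eip74EF stood at 3.85 FPKM, Eip78C at 3.06 FPKM, Eip93F at 1.28 FPKM and Hr46 at 0.0860 FPKM, all taken from the GFP column of the SIN3 table. The median tested gene of that table stood at 24.2 FPKM in the control, so 3 of the 10 were above it. The control level of each gene differed by at most 1.65% between the tables.

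EcR, ftz-f1, br, Eip93F and Hr46 held the ranks 4, 5, 6, 9 and 10 in every group. Eip75B ranked 1 in the samples labelled double knockdown and after Sam-S knockdown, but 3 in the samples labelled SIN3 knockdown and in the control. Eip74EF and Eip78C, at ranks 7 and 8, changed places: Eip78C was the higher of the pair in the samples labelled double knockdown and after Sam-S knockdown, and Eip74EF the higher in the samples labelled SIN3 knockdown and in the control. With pooled values no spread of a level is known, so neighbours in this order cannot be said to differ.

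EcR, the usp row (shared with Actn) and tai, the receptor machinery, had log2 fold changes from -0.21 to 0.04 over all comparisons, and none was called. A gene was called where the authors tested it and its q in the authors' deposited table was under 0.05, and only called genes are said to rise or fall. EcR (chromosome 2R, 1975378 to 2056592, build dm3) encodes the hormone-binding receptor. EcR had 18.2, 16.1 and 17.5 FPKM in the samples labelled double knockdown, those labelled SIN3 knockdown and the Sam-S knockdown, against 18.9, 18.7 and 18.8 FPKM in the control of the same tables. Its log2 fold changes, knockdown over control, were -0.05, -0.21 and -0.10 in that order.

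An approximate 95% interval was read for each fold change from the deposited statistic and p, and it carries only Cuffdiff's own model of error. For EcR it ran from -0.43 to 0.32 in the double comparison, from -0.59 to 0.17 in the Sin3A comparison and from -0.46 to 0.26 in the Sam-S comparison. Changes of EcR within these bounds were thus not detectable here, and a level equal to the control is not shown.

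The usp gene, on chromosome X, encodes the partner receptor, the fly ortholog of vertebrate RXR. Its row (1918789 to 1936344) is merged with Actn, the gene of alpha-actinin, so the values belong to both genes and cannot be split. The merged row stood at 34.5, 35.1 and 32.3 FPKM in the double, SIN3 and Sam-S knockdowns as labelled, against 34.5, 34.2 and 34.3 FPKM in the control. The log2 fold changes were 0.00, 0.04 and -0.09, none of them called.

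Taiman, a coactivator of the p160 family that binds the receptor, is encoded by tai (chromosome 2L, 9166778 to 9251042). It stood at 31.6, 30.2 and 32.0 FPKM in the double, SIN3 and Sam-S knockdowns as labelled, against 34.6, 34.2 and 34.4 FPKM in the control. The knockdown level was the lower of the pair in all 3 comparisons, by a log2 fold change of -0.13, -0.18 and -0.10, but every interval included 0.

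Among the early genes, Eip74EF had the lowest fold change of the 9 tested in both comparisons that included Sin3A dsRNA. Eip74EF (chromosome 3L, 17551772 to 17612425) encodes a transcription factor of the ETS family that acts in metamorphosis. It fell to 1.92 FPKM in the samples labelled double knockdown, against 3.89 FPKM in the control. This is a log2 fold change of -1.02 with an approximate interval from -1.55 to -0.48 and q = 0.00397 in the authors' deposited table. It also fell to 1.92 FPKM in the samples labelled SIN3 knockdown, against 3.85 FPKM in the control. The log2 fold change was -1.003, with an interval from -1.55 to -0.46 and q = 0.0129 in the authors' deposited table.

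With Sam-S dsRNA alone, Eip74EF stood at 3.30 FPKM against 3.87 FPKM in the control, a log2 fold change of -0.23 that was not called. Its fold change was below that of 94.7% of tested genes in the double comparison and of 94.8% in the Sin3A comparison. The gene is weakly expressed: 84.3% of the genes tested in the Sin3A comparison had a control FPKM as high or higher. With 1 added to each FPKM the log2 fold changes became -0.74 in the double and -0.73 in the Sin3A comparison.

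The br gene, also called Broad-Complex (chromosome X, 1417587 to 1558902), encodes BTB zinc finger transcription factors that specify the pupal stage. It fell to 6.66 FPKM in the samples labelled double knockdown, against 10.5 FPKM in the control. Its log2 fold change there was -0.65, with an interval from -1.08 to -0.23 and q = 0.0292 in the authors' deposited table. With Sin3A dsRNA alone br stood at 6.84 FPKM against 10.4 FPKM in the control, a log2 fold change of -0.60 with an interval from -1.02 to -0.17. This missed the threshold, with p = 0.0052 and q = 0.0637 in the authors' deposited table. With Sam-S dsRNA alone it stood at 9.47 FPKM against 10.4 FPKM in the control (-0.14).

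Eip75B and Eip78C encode nuclear receptors of the hormone response. Eip75B (chromosome 3L, 17944053 to 18057796) binds heme and represses the activity of the receptor encoded by Hr46. It stood at 46.6 FPKM in the samples labelled double knockdown, against 33.4 FPKM in the control. The log2 fold change was 0.48 with an interval from 0.11 to 0.85, but the value was not called, with p = 0.0133 and q = 0.101 in the authors' deposited table. With Sin3A dsRNA alone it stood at 28.5 FPKM against 33.0 FPKM in the control (-0.21), and after Sam-S knockdown at 38.8 FPKM against 33.2 FPKM (0.23). Eip75B was thus above its control with both dsRNAs or Sam-S dsRNA, and below it with Sin3A dsRNA alone, by amounts that did not pass the test.

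Eip78C (chromosome 3L, 21219709 to 21259603) stood at 2.72 FPKM in the samples labelled double knockdown against 3.10 FPKM in the control (-0.19). In the samples labelled SIN3 knockdown it stood at 1.90 FPKM against 3.06 FPKM in the control (-0.69), with p = 0.0290 and q = 0.209 in the authors' deposited table. With Sam-S dsRNA alone it stood at 3.86 FPKM against 3.08 FPKM in the control (0.33). The samples labelled SIN3 knockdown held the lowest value of the gene and the Sam-S knockdown the highest, and no comparison was called.

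The mid-prepupal genes act after the early wave. The competence factor ftz-f1 (chromosome 3L, 18743707 to 18794409) is a nuclear receptor that lets tissues respond to a later hormone pulse. It stood at 12.7, 11.99 and 11.7 FPKM in the double, SIN3 and Sam-S knockdowns as labelled, against 12.6, 12.5 and 12.6 FPKM in the control. Its fold changes of 0.00, -0.06 and -0.11 on the log2 scale had the smallest absolute median of the genes with a row of their own.

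Hr46, also called Hr3 (chromosome 2R, 6091617 to 6124853), is the nuclear receptor that activates ftz-f1 in prepupae, and its row is merged with CG12912. It was listed at 0.0811, 0.0764 and 0.0793 FPKM in the double, SIN3 and Sam-S knockdowns as labelled, against 0.0872, 0.0860 and 0.0867 FPKM in the control. Cuffdiff tested the row in no table, and no fold change is given for it.

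Eip93F, or E93 (chromosome 3R, 17774836 to 17840261), encodes a factor of salivary gland cell death and of adult specification. It stood at 1.23, 1.04 and 1.23 FPKM in the double, SIN3 and Sam-S knockdowns as labelled, against 1.30, 1.28 and 1.29 FPKM in the control. Its fold changes of -0.07, -0.30 and -0.07 were not called.

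**Figure D2:**
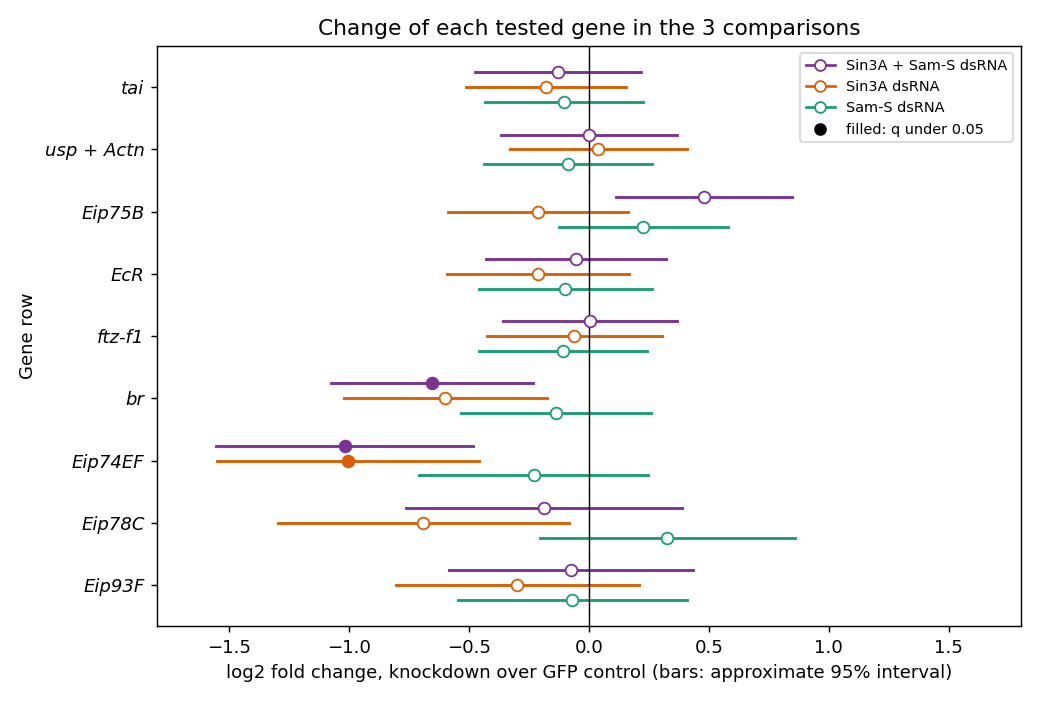
Log2 fold change of the 9 tested genes, knockdown over GFP control, with approximate 95% intervals as bars and filled points for genes with q under 0.05. The filled points are Eip74EF at -1.02 and -1.003 and br at -0.65, and the Eip75B points lie at 0.48, -0.21 and 0.23.

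Counted over the 9 tested genes, 2 fell and none rose in the samples labelled double knockdown, where 9.62% of all tested genes were called, 3.48% higher and 6.14% lower. In the samples labelled SIN3 knockdown 1 of the 9 fell and none rose, beside 7.68% of all tested genes called, 3.34% higher and 4.35% lower. After Sam-S knockdown none was called, beside 0.163% of all tested genes, 0.088% higher and 0.0754% lower. Cuffdiff's unadjusted p was under 0.05 for 3, 3 and 0 of the 9 in the double, Sin3A and Sam-S comparisons, beside 20.5%, 18% and 2.8% of all tested genes. At q under 0.01 the counts were 1, 0 and 0, beside 4.74%, 4.03% and 0% of all tested genes. With 9 genes, nothing particular to the list is read from these counts.

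The median log2 fold change of the 9 genes was -0.07, -0.21 and -0.10 in the double, Sin3A and Sam-S comparisons, against -0.01, -0.01 and -0.02 over all tested genes. The median absolute log2 fold change was 0.13, 0.21 and 0.11 for the 9 genes, against 0.27, 0.23 and 0.12 for all tested genes. Their standard errors read from the deposited statistic ranged from 0.17 to 0.31, around a median over all tested genes of 0.24, 0.24 and 0.22.

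**Figure D3:**
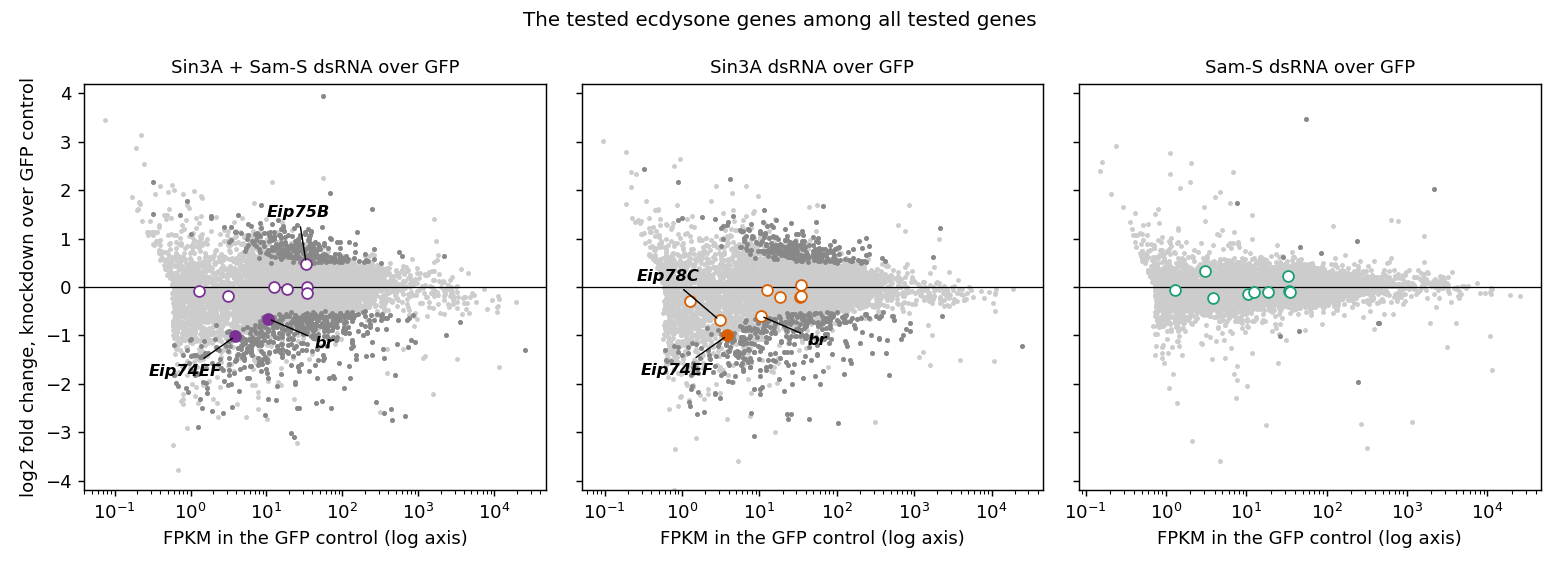
Log2 fold change, knockdown over control, against control FPKM on a log axis for all tested genes (light grey, or dark grey where q is under 0.05) and for the 9 ecdysone genes (coloured circles, filled where q is under 0.05). The 9 genes lie between 1.28 and 34.6 FPKM, and Eip74EF, at -1.02 and -1.003, is the lowest of them in both comparisons that include Sin3A dsRNA. From left to right 1, 2 and 2 genes lie beyond the axis limit of 4.2 and are not drawn.

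The design also allows the knockdowns to be set against each other, each through its own control. The test of these differences was approximate and was run over the 7810 gene rows tested in all tables, with Benjamini-Hochberg adjustment over all of them. The GFP samples that the tables share were not allowed for, which makes its standard errors too large. Over the 27 differences of the 9 genes none had an approximate q under 0.05, while 4 intervals, 1, 1 and 2 in the order of comparisons given next, left out 0. Among all rows, 0.166% had a q under 0.05 for the double minus the SIN3 knockdown, 0.973% for the double minus the Sam-S knockdown and 2.06% for the SIN3 minus the Sam-S knockdown. The shares of all rows with an unadjusted approximate p under 0.05 were 1.97%, 7.45% and 10.3%.

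For Eip75B the fold change of the double exceeded that of the SIN3 knockdown as labelled by 0.69 on the log2 scale, with an approximate interval from 0.17 to 1.22. Its unadjusted approximate p was 0.00968 and its approximate q 0.9999, so the difference failed the correction. Eip74EF differed by -0.79 between the double and the Sam-S knockdown (interval -1.50 to -0.07) and by -0.77 between the SIN3 and the Sam-S knockdown (interval -1.50 to -0.05). The approximate q of these differences were 0.557 and 0.423, and both use the same Sam-S knockdown value. Between the double and the SIN3 knockdown Eip74EF differed by -0.02, but the interval from -0.78 to 0.75 leaves room for sizeable differences either way. Eip78C differed by -1.02 between the SIN3 and the Sam-S knockdown, with an interval from -1.82 to -0.21 and an approximate q of 0.251.

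For br the double minus the SIN3 knockdown was -0.06, with an interval from -0.65 to 0.54, and the double minus the Sam-S knockdown was -0.52, with an interval from -1.09 to 0.06. EcR differed by 0.16 between the double and the SIN3 knockdown and by 0.05 between the double and the Sam-S knockdown, and both intervals included 0.

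**Figure D4:**
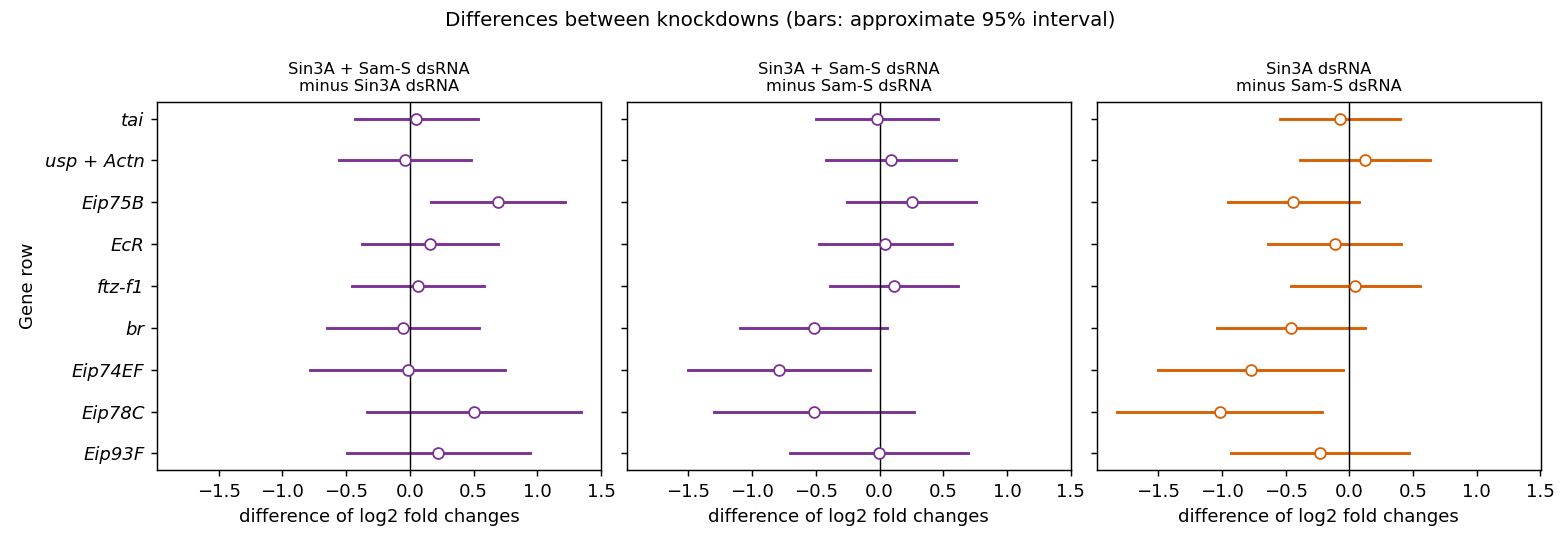
Difference between the log2 fold changes of 2 knockdowns for each of the 9 tested genes, with approximate 95% intervals as bars. The intervals that leave out 0 are those of Eip75B at 0.69 in the left panel, Eip74EF at -0.79 in the middle panel, and Eip74EF at -0.77 and Eip78C at -1.02 in the right panel.

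The rest of the pathway was described with 4 lists. The coregulator list held 12 genes, all tested. In the samples labelled SIN3 knockdown 1 of them rose and none fell, beside 3.34% of all tested genes called higher and 4.35% lower. In the double and Sam-S comparisons none was called, beside 9.62% and 0.163% of all tested genes. The gene that rose was DOR, which encodes a protein that binds EcR and enhances its activity, at 10.3 FPKM against 5.80 FPKM in the control (0.83, q = 0.0212 in the authors' deposited table). DOR stood at 9.33 FPKM against 5.85 FPKM in the double comparison (0.67, not called). The most abundant coregulators were Alien, at 153 FPKM in the samples labelled SIN3 knockdown and 153 FPKM in the control, and mbf1, a coactivator of ftz-f1, at 126 and 127 FPKM. Smr encodes the corepressor SMRTER, which binds both EcR and SIN3. It stood at 81.0 FPKM in the samples labelled SIN3 knockdown against 126 FPKM in the control (-0.64), with an interval from -1.69 to 0.42, and was not called. In the other tables Smr shares its row with CR43963, so its values are not set side by side across tables. The list median of the log2 fold change was -0.19, -0.18 and -0.09 in the double, Sin3A and Sam-S comparisons.

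Of 15 other nuclear receptor genes only 6 were tested, and none was called in any comparison, beside 9.62%, 7.68% and 0.163% of all tested genes in the double, Sin3A and Sam-S comparisons. Nothing is read from so few genes. The highest in the control of the SIN3 table were the merged row of Glg1 and Hr78, at 67.2 FPKM in the samples labelled SIN3 knockdown and 72.0 FPKM in the control, and the lipid-sensing receptor gene Hnf4, at 51.5 and 46.2 FPKM. The 9 untested ones stood at 0.206 FPKM or less in that control. The 6 tested ones had a median log2 fold change of -0.05, 0.12 and -0.03 in the double, Sin3A and Sam-S comparisons.

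Of 23 other ecdysone-induced genes, Cuffdiff tested 14. In the double comparison 2 of the 14 rose, in the Sin3A comparison 2, and in the Sam-S comparison 1, beside 3.48%, 3.34% and 0.088% of all tested genes called higher. None of the 14 fell, beside 6.14%, 4.35% and 0.0754% of all tested genes called lower. Eip71CD encodes methionine sulfoxide reductase and shares its row with Z600 and gdl. This row rose in all 3 comparisons, to 848, 84.4 and 610 FPKM against 55.3, 54.7 and 55.0 FPKM in the control. ImpL3, the lactate dehydrogenase gene, rose to 25.8 FPKM in the samples labelled SIN3 knockdown against 14.7 FPKM in the control (0.81, q = 0.0401 in the authors' deposited table). The merged row of Eip63F-1, which encodes a calcium-binding protein, and mge rose to 175 FPKM in the samples labelled double knockdown against 112 FPKM in the control (0.64, q = 0.00507 in the authors' deposited table). The list median was 0.22, 0.10 and 0.14 in the double, Sin3A and Sam-S comparisons, against -0.01, -0.01 and -0.02 over all tested genes.

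The list of ecdysteroid synthesis, uptake and inactivation held 13 genes, of which 5, 5 and 3 were tested in the double, Sin3A and Sam-S comparisons and none was called, beside 9.62%, 7.68% and 0.163% of all tested genes. Their medians of -0.28, 0.14 and -0.21 rest on these few genes. The cholesterol transport gene Npc1a stood at 73.0, 96.5 and 72.4 FPKM in the double, SIN3 and Sam-S knockdowns as labelled, against 88.5, 87.5 and 88.1 FPKM in the control. Oatp74D, which encodes the importer that brings ecdysone into cells, stood at 86.0, 80.6 and 65.0 FPKM in the same order, against 75.0, 74.2 and 74.6 FPKM in the control. The 8 genes untested in the Sin3A comparison stood at 0.264 FPKM or less in its control, the highest being shd, which converts ecdysone to its active form.

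**Figure D5:**
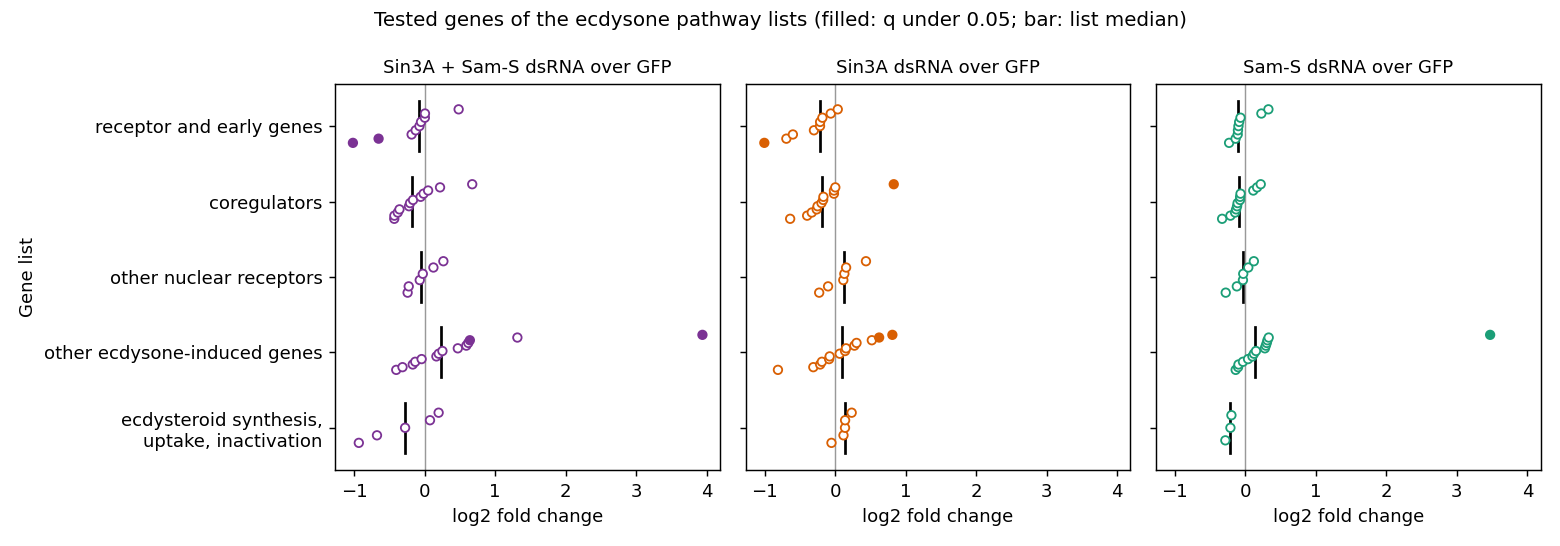
Log2 fold change, knockdown over control, of the tested genes of each ecdysone list, with filled points for genes with q under 0.05 and a black bar at the list median. The point farthest to the right in the double and Sam-S panels is the merged row of Eip71CD, at 3.94 and 3.47, and the other ecdysone-induced genes have medians of 0.22, 0.10 and 0.14 from left to right.

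The summed level of the hemocyte markers was 1056, 991 and 1683 FPKM in the double, SIN3 and Sam-S knockdowns as labelled, against 1632, 1609 and 1622 FPKM in the control. He, a hemocyte surface protein gene, makes up much of this sum, at 367, 425 and 699.8 FPKM in the same order against 788, 774 and 783 FPKM in the control. Without He the sums were 688, 566 and 984 FPKM, against 844, 835 and 839 FPKM in the control. Of 11 markers 5 fell in the double comparison, 5 in the Sin3A comparison and none in the Sam-S comparison, beside 6.14%, 4.35% and 0.0754% of all tested genes called lower. No marker rose, the other 6 were not called in the double or the Sin3A comparison, and Cg25C stood at 0.33 in the double and crq at 0.34 in the Sin3A comparison on the log2 scale. Eip74EF was called in the double and the Sin3A comparison, and br in the double comparison. The part of this in the values of Eip74EF and br was not tested. All 5 markers of fat body and gut stood below 1 FPKM in the control, as did all 4 muscle markers, 3 of 4 neuron markers and 3 of 4 germline markers. The germline marker aub stood at 27.6, 30.9 and 34.04 FPKM in the double, SIN3 and Sam-S knockdowns as labelled, against 37.3, 36.9 and 37.1 FPKM in the control, and was not called.

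Reads from overlapping genes could enter the values of a member, since the strand setting of the counting is not given in the sources used here. The other rows that overlap a member on dm3 were read in the control only. Those overlapping EcR, Eip75B, br and tai reached at most 0.711 FPKM there. Eip78C, at 3.06 FPKM in the control, overlaps CG43218, which stood at 1.34 FPKM there. Several of the genes have alternative promoters, with 16 transcripts from 9 starts for br, 7 from 7 for Eip75B, 6 from 4 for EcR and 5 from 3 for Eip74EF in the Ensembl annotation of build BDGP6. The tables hold 1 value for all isoforms of a gene, and changes of single isoforms were not analysed here.

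Genes whose fold changes lay nearest to those of Eip74EF and br were found by Euclidean distance over the 3 log2 fold changes, among 7250 rows of single genes tested in every table with at least 1 FPKM in the control. The distance for Eip74EF was 0.0558 to yin, 0.0660 to CG32368 and 0.0875 to Fas2, which encodes a cell adhesion molecule. The distance for br was 0.0172 to CG1667, 0.0176 to rgn and 0.0391 to tum. These are descriptions over 3 comparisons that share a control.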

How the data were processed

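S2 cell RNA of 12 samples in 4 groups was sequenced. The submitters' processing notes name bcl2fastq, Cuffdiff and build dm3. Not given in the sources used here are their versions, the aligner, the filters and the annotation. The authors' deposited tables hold, per the file headers, an FPKM per gene and group, a test statistic (a score), a p-value and a q-value. Replicates were combined, per the labels. Depth is unknown, so no counting interval is given. FPKM were read as deposited and no per-sample value was used.

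Rows were matched to genes by symbol, split at commas, with synonyms from RefSeq where a list symbol was absent. Starts in the files count from 0, and 1 was added. Log2 fold changes were computed without a pseudocount. Standard errors were the fold change over the deposited statistic, divided by the median ratio of the normal quantile of the deposited p to the statistic (1.73 to 1.74). The smallest deposited p was 5e-05. Code was tested on simulated data and ran on Python 3.11.15, pandas 2.3.3 and scipy 1.17.1.

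The members and lists were chosen with earlier results of these data known. Named genes were all members, the targeted genes, called genes of the lists, the 2 most abundant genes of each list with none called, and the 3 genes nearest in pattern to each called member. Alien, mbf1, Smr, shd, Hml, He, Cg25C, crq, aub, CG43218 and the genes in the closing section were named after their values were seen. Alternatives were another q, a recomputed Benjamini-Hochberg q, the unadjusted p, a minimum of 1 FPKM, 1 or 0.1 added to each FPKM, and centring.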

Additional observations from a re-analysis of the deposited data

How the results depend on the processing

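Of 144 values recomputed under alternatives, 138 stayed within the tolerance set for them, and 6 moved. Some alternatives could hardly move a value. The minimum of 1 FPKM excluded no tested member, and centring moved no member's fold change against the control by more than 0.0178. A count had to stay within 1.5 times the first, a fold change or difference inside its approximate 95% interval, and a median within the median standard error of the tested members. These tolerances are wide: Eip74EF in the Sin3A comparison counts as kept at -0.73 with 1 added to each FPKM, against -1.003. No called member changed sign, but this could not have come out otherwise. Adding the same amount to both FPKM keeps the sign, and centring moved the fold changes too little. The difference of Eip74EF between the double and the SIN3 knockdown was -0.02, with an interval that includes 0. It became 0.0021 when the median of this difference over the 7810 gene rows tested in all tables was subtracted. The 6 are counts. At q under 0.01, 1 of the 9 tested genes was called in the double comparison (Eip74EF) and 0 in the Sin3A comparison, where Cuffdiff's unadjusted p was under 0.05 for 3. Of 37 and 35 tested list genes, 0 were called at q under 0.01 in the Sin3A and in the Sam-S comparison, beside 4.03% and 0% of all tested genes. In the Sam-S comparison no gene could be called at that threshold, since its smallest deposited q was 0.0306. Cuffdiff's unadjusted p was under 0.05 for 4 and 1 of these list genes, beside 18% and 2.8% of all tested genes. At an unadjusted p under 0.05, 9 of 37 list genes passed in the double comparison (6 higher, 3 lower), beside 20.5% of all tested genes, against 2 by q. With the unadjusted p, Eip78C and br joined Eip74EF in the Sin3A comparison, and Eip75B joined Eip74EF and br in the double comparison.

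Centring on the median of tested genes with a nonzero FPKM in both groups moved no member's fold change against the control by more than 0.0178 on the log2 scale. The alternatives for differences between knockdowns and for the list counts were added after seeing the data. No paired analysis was possible because the tables hold 1 pooled value per group, and for the same reason no replicate could be left out. Depth is unknown, so changes of Hr46 and of the untested list genes were not detectable here.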

Other observations

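Some genes of the pathway lists had an unadjusted p under 0.05 without being called, and these were named after their values were seen. In the double comparison 9 of 37 tested list genes had such a p, called ones included, beside 20.5% of all tested genes. In the double comparison vri, a transcription factor gene that also acts in the circadian clock, stood at 11.1 FPKM against 7.21 FPKM in the control (0.62, q = 0.0590 in the authors' deposited table). Sox14, encoding a factor of metamorphosis, stood at 14.4 FPKM against 10.4 FPKM (0.47). ImpL3 stood at 22.4 FPKM against 14.9 FPKM (0.59). In the same comparison 3 coregulator genes had such a p with a negative value, rig at -0.43 and the chromatin remodelling genes E(bx) at -0.38 and Iswi at -0.36. Other coregulator genes were negative without such a p, and mbf1, gce and DOR were positive. ImpE3 stood at 3.22 FPKM in the samples labelled double knockdown against 1.30 FPKM in the control, with an approximate interval of its log2 fold change from -3.04 to 5.67, so no direction is read from it.

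The double knockdown was also set against the sum of the single ones, as values only. For Eip75B the log2 fold change of 0.48 stood against a sum of 0.02, for Eip74EF -1.02 against -1.23, and for br -0.65 against -0.74. The departures of the 9 tested genes from their sums ran from 0.05 for the usp row to 0.46 for Eip75B. EcR at 0.26 and Eip93F at 0.29 departed more than Eip74EF at 0.21 or br at 0.08. Departures over all tested genes were not computed, so nothing particular to the list is read from their direction. These sums count the control samples more than once, and the departures were not tested.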
